A study of Mus musculus with 4 samples.

Results

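The genes that encode the proteins of the cytoplasmic ribosome were examined in 4 lists of CUT&RUN peaks from mouse medullary thymic epithelial cells. They were taken by symbol from the RefSeq protein-coding genes of mm10: every Rpl or Rps name followed by a number, with Rplp0, Rplp1, Rplp2 and Rpsa, and without the Rps6k kinases. This gave 91 of 21631 genes on chromosomes 1 to 19 and X. Of these, 77 encode canonical subunits of the ribosome, 46 of the large 60S and 31 of the small 40S subunit. The other 14 carry such a name as paralogs, retrogenes, pseudogene-like loci or binding partners. They are Rpl22l1, Rpl37rt, Rpl34-ps1, Rps23rg1, Rps27l, Rps27rt, Rpl32l, Rpl10l, Rpl36al, Rps19bp1, Rpl39l, Rpl31-ps12, Rpl3l and Rpl7l1.

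The samples were mTEChi and mTEClo cells, 2 libraries of each, sorted from thymi of mice aged 4 to 5 weeks with a Trp53-WT genotype, that is, with intact p53, a transcription factor activated by stress. In common usage mTEChi cells carry much surface MHC class II and include the cells that express Aire, and mTEClo cells carry little and are less mature. CUT&RUN releases short DNA fragments around an antibody bound to chromatin, here from 500000 cells per condition. The titles of the samples name an antibody against p53, and their protocol names one against BAF155, a subunit of a chromatin remodelling complex, so the protein behind the peaks is not settled by the labels.

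Ribosomal protein genes are short, intron-bearing genes that nearly every cell transcribes at high rates from promoters with a fixed start inside a run of pyrimidines, the 5′ terminal oligopyrimidine (TOP) tract. Many hold small nucleolar RNAs (snoRNAs), which guide the modification of ribosomal RNA, in their introns. When ribosome assembly is disturbed, free Rpl5 and Rpl11 with 5S ribosomal RNA bind Mdm2, the ubiquitin ligase that keeps p53 low, and p53 accumulates. This link between ribosome supply and p53 is known best from human cells and from mouse models of Diamond-Blackfan anaemia.

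The promoters of 5 of these genes are shown, 4 whose peaks stood near the top of every list and 1 canonical gene, Rps25, that had no peak within 5 kb in any list. Each runs from 250 bases before to 50 bases after the annotated start, 5′ to 3′ on the strand of the gene, so the start is at position 251. The sequences are from RefSeq, build GRCm38.p6 (mm10). Capitals mark the core of an Ets site (CCGGAAG) or of an Sp site (GGGCGG), read on either strand. The windows are chr7:24884342-24884641 on the plus strand for Rps19, chr10:128549119-128549418 on the minus strand for Rpl41, chr4:86857318-86857617 on the minus strand for Rps6, chrX:74270566-74270865 on the plus strand for Rpl10 and chr9:44407464-44407763 on the plus strand for Rps25.
Rps19: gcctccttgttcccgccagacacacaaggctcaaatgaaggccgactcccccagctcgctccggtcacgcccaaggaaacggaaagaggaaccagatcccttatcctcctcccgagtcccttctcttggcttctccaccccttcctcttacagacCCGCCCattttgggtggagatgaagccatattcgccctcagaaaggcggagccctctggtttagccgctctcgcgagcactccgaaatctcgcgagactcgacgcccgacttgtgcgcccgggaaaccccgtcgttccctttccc
Rpl41: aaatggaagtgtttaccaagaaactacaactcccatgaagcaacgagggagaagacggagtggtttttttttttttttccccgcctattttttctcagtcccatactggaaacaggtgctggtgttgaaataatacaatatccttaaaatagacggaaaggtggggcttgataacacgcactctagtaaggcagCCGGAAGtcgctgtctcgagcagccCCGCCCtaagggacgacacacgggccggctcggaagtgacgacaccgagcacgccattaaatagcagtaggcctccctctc
Rps6: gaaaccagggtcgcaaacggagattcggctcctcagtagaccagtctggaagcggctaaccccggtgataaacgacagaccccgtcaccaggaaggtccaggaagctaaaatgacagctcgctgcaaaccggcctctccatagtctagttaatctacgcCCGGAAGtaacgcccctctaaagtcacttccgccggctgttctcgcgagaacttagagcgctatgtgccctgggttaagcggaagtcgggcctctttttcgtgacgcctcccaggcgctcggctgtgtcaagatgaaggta
Rpl10: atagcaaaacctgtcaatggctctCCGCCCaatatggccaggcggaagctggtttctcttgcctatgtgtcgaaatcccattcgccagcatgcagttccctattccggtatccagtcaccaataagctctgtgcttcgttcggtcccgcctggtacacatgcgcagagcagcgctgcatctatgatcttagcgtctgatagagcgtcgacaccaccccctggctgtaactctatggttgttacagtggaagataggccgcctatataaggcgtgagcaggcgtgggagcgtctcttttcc
Rps25: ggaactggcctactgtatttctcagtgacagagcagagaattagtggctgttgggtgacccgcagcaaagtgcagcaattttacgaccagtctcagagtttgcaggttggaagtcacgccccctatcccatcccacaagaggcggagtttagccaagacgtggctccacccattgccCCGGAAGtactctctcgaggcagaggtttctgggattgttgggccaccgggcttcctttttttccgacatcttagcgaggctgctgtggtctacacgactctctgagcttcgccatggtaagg

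The nearest summits fell inside these windows with 1 exception. At Rps6 they lay at positions 194 and 224 in mTEChi replicates 1 and 2 and at 221 and 213 in mTEClo replicates 1 and 2, between the Ets core at position 160 and the start. At Rpl41 they lay at positions 157 and 205 in mTEChi and at 203 and 191 in mTEClo, around the Ets core at 195 and before the Sp core at 220. The Rpl10 summits, at positions 125 and 141 in mTEChi and 140 and 150 in mTEClo, were farther from the Sp core at position 25. For Rps19 the summits at positions 103 and 38 in mTEChi and 83 in mTEClo replicate 1 preceded the Sp core at 156, and that of mTEClo replicate 2 lay upstream of the window, 299 bp before the start. Rps25 shares the Ets core, at position 178, without a summit in any list. Positions of summits and of letters are given side by side, and a match of letters is not a bound site.

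Most ribosomal protein genes held a summit close to one end, and did so in both cell states. A summit lay within 1 kb of either gene end for 68 and 63 of the 91 genes in mTEChi replicates 1 and 2 (74.7% and 69.2%) and for 62 and 53 in mTEClo replicates 1 and 2 (68.1% and 58.2%). Among all 21631 protein-coding genes the shares were 37.4% and 37.4% in mTEChi and 47.3% and 35.7% in mTEClo. The ribosomal share was therefore 2.00 and 1.85 times that of all genes in mTEChi and 1.44 and 1.63 times in mTEClo. All 4 libraries held such a summit at 41 genes (45.1%), against 17.1% of all genes, and no library did at 13 (14.3%), against 34.0% of all genes. The remaining genes were called in 3 libraries (17 genes), 2 (11) or 1 (9).

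Within 5 kb the gap to other genes was smaller. Summits lay there for 74 and 75 genes in mTEChi (81.3% and 82.4%) and 74 and 70 in mTEClo (81.3% and 76.9%), against 59.8% and 64.1% of all genes in mTEChi and 69.2% and 59.7% in mTEClo. All 4 libraries held one at 55 genes (60.4%), against 36.0% of all genes. Only 4 genes (4.40%) lacked a summit within 5 kb in every library, against 14.5% of all genes.

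Ribosomal protein genes are short and often lie close to other genes, so both features were set beside these shares. The median ribosomal gene spans 3175 bp and the median protein-coding gene 17329 bp. Among the 6302 genes of 1 to 10 kb the shares with a summit within 1 kb were 34.6% and 34.3% in mTEChi and 43.4% and 33.3% in mTEClo, and the 84 ribosomal genes of that length reached 78.6% and 72.6% in mTEChi and 72.6% and 60.7% in mTEClo. Of the 91 genes, 32 have an end of another protein-coding gene within 1 kb. Of these, 28 and 27 were called in mTEChi and 25 and 21 in mTEClo (87.5%, 84.4%, 78.1% and 65.6%). The other 59 were called 40 and 36 times in mTEChi and 37 and 32 in mTEClo (67.8%, 61.0%, 62.7% and 54.2%). Ribosomal genes with so near a neighbour were thus called more often in each library. Shares of all genes split in this way are not given here. Where no other gene end lay within 5 kb, 16 and 16 of 25 ribosomal genes were called in mTEChi and 17 and 11 in mTEClo (64.0%, 64.0%, 68.0% and 44.0%), against 27.5% and 28.3% of 11562 such genes in mTEChi and 37.9% and 27.3% in mTEClo. The difference from all genes was thus present among genes of like length and among isolated genes. Levels of transcription were not measured in these lists, and their part in the result was not tested.

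**Figure D1:**
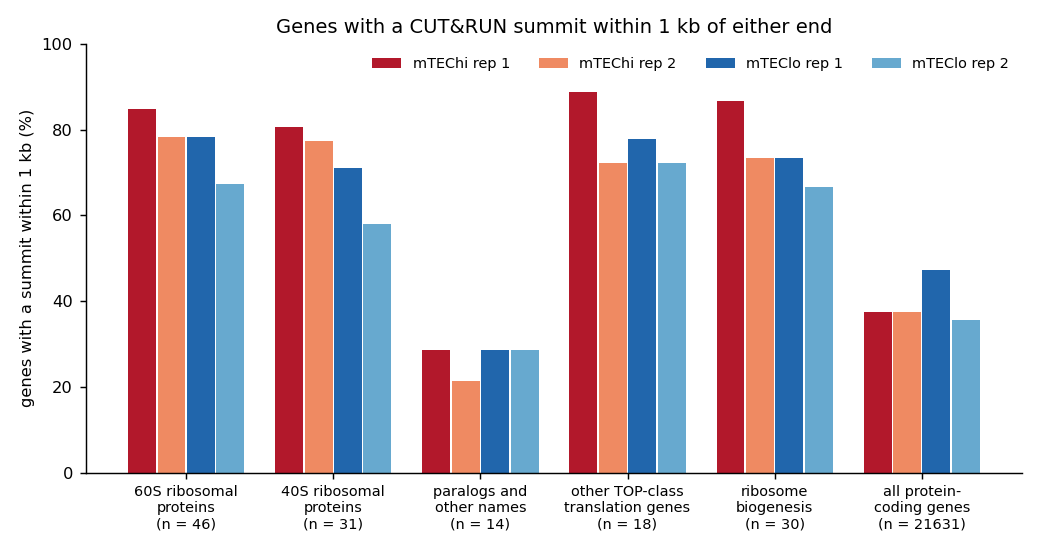
Share of genes (%, vertical axis from 0) with a CUT&RUN summit within 1 kb of either gene end, by gene group, with 1 bar per library in the order mTEChi 1 and 2, mTEClo 1 and 2. The canonical 60S and 40S genes stood between 58.1% and 84.8%, the 14 paralogs and other names between 21.4% and 28.6%, and all protein-coding genes between 35.7% and 47.3%.

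Genes of both subunits were marked, and the genes outside the canonical set were called less often. Of the 46 canonical 60S genes 39 and 36 were called within 1 kb in mTEChi and 36 and 31 in mTEClo, with 23 called in all 4 libraries. Of the 31 canonical 40S genes 25 and 24 were called in mTEChi and 22 and 18 in mTEClo, with 16 in all 4. The 14 paralogs and other names were called 4 and 3 times in mTEChi and 4 and 4 times in mTEClo (28.6%, 21.4%, 28.6% and 28.6%), below the share of all genes in each library. Only 2 of these 14, Rpl36al and Rpl3l, were called in all 4 libraries, and 9 of the 13 genes without a summit within 1 kb in any library came from this group.

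Other genes of the translation and ribosome assembly pathway were called as follows. A list of 18 further translation genes whose messages carry TOP tracts, such as elongation factors and Npm1, was called 16 and 13 times in mTEChi and 14 and 13 times in mTEClo, with 9 in all 4 libraries. Among them Eef1a1, the elongation factor that brings transfer RNA to the ribosome, Pabpc1, which binds poly(A) tails, and Npm1, a nucleolar chaperone, were called in all 4, whereas Eef2 had no summit within 5 kb. A list of 30 ribosome biogenesis genes was called 26 and 22 times in mTEChi and 22 and 20 times in mTEClo, with 10 in all 4, including Ncl, Fbl and the RNA polymerase I subunit Polr1a. Fau, whose product carries a 40S protein under another name, was among the genes called in all 4. Called in all 4 libraries were 9 of 18 translation genes and 10 of 30 biogenesis genes (33.3%). The canonical ribosomal genes reached 39 of 77 (50.6%), and all protein-coding genes 17.1%. In single libraries all genes reached 37.4% and 37.4% in mTEChi and 47.3% and 35.7% in mTEClo. Translation, biogenesis and canonical ribosomal genes thus stood above the share of all genes in each library and in all 4. These differences were not tested.

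Groups within the ribosome were counted in the same way. The 30 snoRNA hosts were called 27 and 26 times in mTEChi (90.0% and 86.7%) and 24 and 22 in mTEClo (80.0% and 73.3%). The 47 canonical genes without snoRNAs were called 37 and 34 times in mTEChi and 34 and 27 in mTEClo (78.7%, 72.3%, 72.3% and 57.4%). The 17 genes whose proteins are reported to bind Mdm2 were called 13 and 12 times in mTEChi and 11 and 11 times in mTEClo, near the share of the whole family. The 18 genes mutated in Diamond-Blackfan anaemia, an inherited failure of red cell production, were called 16 and 16 times in mTEChi and 14 and 9 times in mTEClo.

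The summits sat just upstream of the transcription start. Strand was known for 70 of the 91 genes and for 17274 of all genes. At the annotated start 50 and 43 of the 70 genes had a summit within 1 kb in mTEChi and 46 and 37 in mTEClo (71.4%, 61.4%, 65.7% and 52.9%), against 34.6% and 33.1% of all genes in mTEChi and 43.1% and 31.5% in mTEClo. At the far end the counts were 6 and 7 in mTEChi and 7 and 7 in mTEClo (8.57%, 10.0%, 10.0% and 10.0%), and for all genes 6.92% and 8.67% in mTEChi and 9.85% and 7.96% in mTEClo. The excess was therefore at the start, and the far end was close to the share of other genes.

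Per 100 ribosomal genes, 51.4 and 41.4 summits lay in the 300 bp before the start in mTEChi and 41.4 and 34.3 in mTEClo. In the 300 bp after the start there were 14.3 and 17.1 per 100 genes in mTEChi and 21.4 and 14.3 in mTEClo. All genes had 18.5 and 15.6 before the start in mTEChi and 19.6 and 14.4 in mTEClo, and 9.12 and 9.28 after it in mTEChi and 13.7 and 8.99 in mTEClo. Both sets thus leaned to the upstream side in every library. The median distance from start to summit, among genes called there, was 81.5 and 79.0 bp in mTEChi and 61.5 and 72.0 bp in mTEClo for ribosomal genes, and 124 and 135 bp in mTEChi and 123 and 136 bp in mTEClo for all genes.

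**Figure D2:**
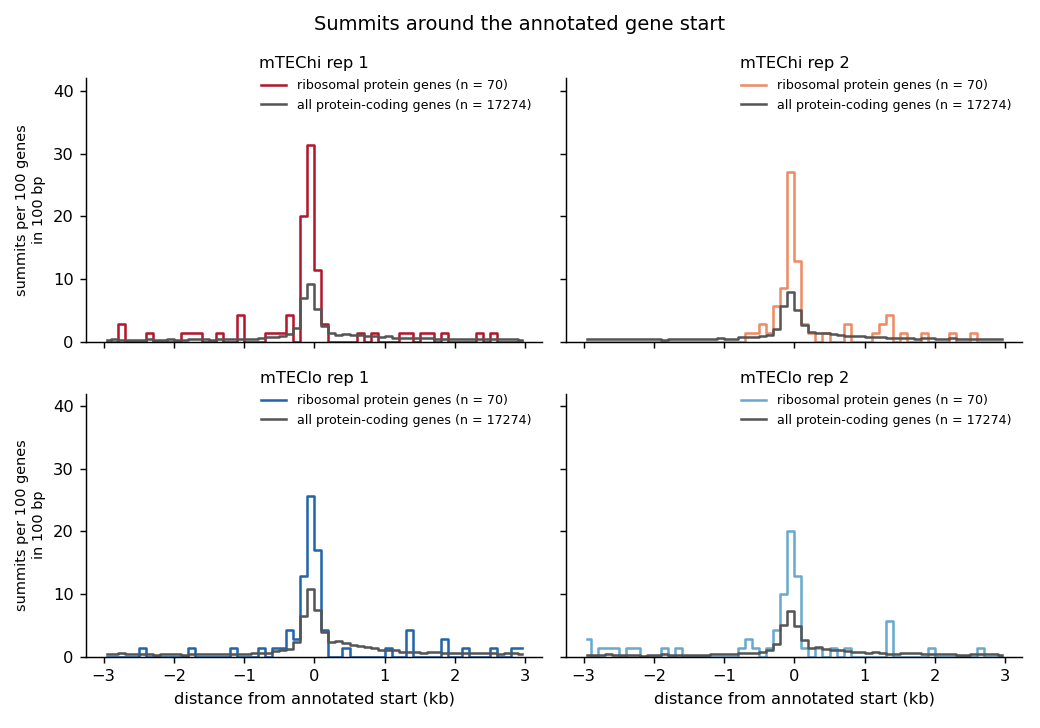
Summits per 100 genes in bins of 100 bp (vertical axis) against distance from the annotated start in kb (horizontal axis, negative upstream), 1 panel per library, mTEChi above and mTEClo below. The coloured line is the 70 ribosomal protein genes with a known strand and the grey line all 17274 such genes: both peak just before the start, the ribosomal genes higher in each library.

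Where a gene was called in all 4 libraries, the summits of its best peaks often fell close together. Their positions spanned a median of 119 bp for the 41 ribosomal genes and 154 bp for all 3700 genes called in all 4. They lay within 150 bp of each other at 24 of the 41 (58.5%), against 49.4% of all. Rps12, a 40S protein gene on chr10:23785183-23787383, had tightly placed summits, 77 and 79 bp after its start in mTEChi and 81 and 73 bp after it in mTEClo. At Rps6 the 4 summits lay 57 and 27 bp before the start in mTEChi and 30 and 38 bp before it in mTEClo.

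The score deposited with each peak was used for its place within its own list, given as a percentage from the top, since scores of different lists are not on a common scale. The best peaks of ribosomal genes within 1 kb had a median place of 6.23% and 4.57% in mTEChi and 8.48% and 14.0% in mTEClo. For all called genes the medians were 16.9% and 20.6% in mTEChi and 23.0% and 24.3% in mTEClo, so ribosomal peaks stood higher than those of the typical called gene in each list. Of the called ribosomal genes, 60.3% and 65.1% were in the top 10% of the mTEChi lists and 54.8% and 47.2% in that of the mTEClo lists, against 40.8% and 36.9% of all called genes in mTEChi and 34.6% and 29.8% in mTEClo. The top 1% held 7 and 9 of the ribosomal genes in mTEChi and 8 and 8 in mTEClo, a count not made for all genes.

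By its lowest place over the 4 lists Rps19 came first in the family. It encodes the 40S protein most often mutated in Diamond-Blackfan anaemia and lies on chr7:24884592-24889811. Its score was 46.2 and 24.2 in mTEChi and 28.9 and 19.8 in mTEClo, which put it in the top 0.19% and 0.215% of the mTEChi lists and the top 0.123% and 0.192% of the mTEClo lists. The places overlapped between the states, and no other gene end lay within 1 kb. Its summits lay 148 and 213 bp before the start in mTEChi and 168 and 299 bp before it in mTEClo.

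Rpl41, whose product is the smallest ribosomal protein, came next (chr10:128548110-128549168). Its best peak scored 28.8 and 26.2 in mTEChi and 29.9 and 17.7 in mTEClo, at places of 0.582% and 0.157% in mTEChi and 0.106% and 0.265% in mTEClo. In mTEChi replicate 2 that best peak was not at the start but 1366 bp after it, beyond the far end and near Zc3h10, which begins 102 bp from Rpl41, while a second summit of the same library lay 46 bp before the start. The start itself was therefore marked in all 4 libraries.

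Rps6, the 40S protein phosphorylated by S6 kinases, scored 17.6 and 11.2 in mTEChi and 12 and 15.3 in mTEClo, at places of 1.69% and 1.31% in mTEChi and 2.24% and 0.420% in mTEClo. Rpl10, an X-linked 60S protein that joins late in assembly, scored 18.4 and 13.6 in mTEChi and 11.3 and 16.1 in mTEClo, at places of 1.55% and 0.804% in mTEChi and 2.69% and 0.353% in mTEClo. For both genes mTEClo replicate 2 had the highest place and mTEClo replicate 1 the lowest, so the states overlapped. Rpl10 also had a second summit farther upstream in every library, at -512 and -455 bp from the start in mTEChi and -487 and -520 bp in mTEClo, which was the higher-scoring one in mTEChi replicate 1 only.

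Rps29, a small zinc-binding 40S protein, had places of 1.13% and 1.38% in mTEChi and 0.641% and 0.420% in mTEClo, and Rpl23a, which sits at the exit tunnel of the ribosome, 2.85% and 1.11% in mTEChi and 0.559% and 0.195% in mTEClo. At both genes both mTEClo libraries placed the peak higher. Rplp0, the base of the stalk that recruits elongation factors, stood at 1.31% and 1.29% in mTEChi and 0.559% and 4.21% in mTEClo, with summits 53 and 88 bp before the start in mTEChi and 80 and 40 bp before it in mTEClo. Of its stalk partners, Rplp2 was called in all 4 libraries, at 6.94% and 5.13% in mTEChi and 8.83% and 79.5% in mTEClo. Rplp1 was called within 1 kb in mTEChi replicate 2 alone, at 5.74%. Of the 3 stalk genes, Rplp0 and Rplp2 were thus called in all 4 libraries and Rplp1 in 1.

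The rest of the 12 leading genes were Rpl15, Rps12, Rpl27a and Rpl13a, a 60S protein also known from translational silencing in human cells, and Rpl3l, the paralog of Rpl3 made in skeletal and heart muscle. For these 5 the lowest place in any library lay between 5.71% and 6.97%. The best Rpl3l summits lay between 8697 and 8853 bp after its start, past its far end at chr17:24736143, where Msrb1 starts 450 bp downstream on the same strand. A count by either gene end assigns that peak to Rpl3l as well. In mTEClo replicate 2 a further summit, with a score of 5.46, lay 113 bp from the start.

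**Figure D3:**
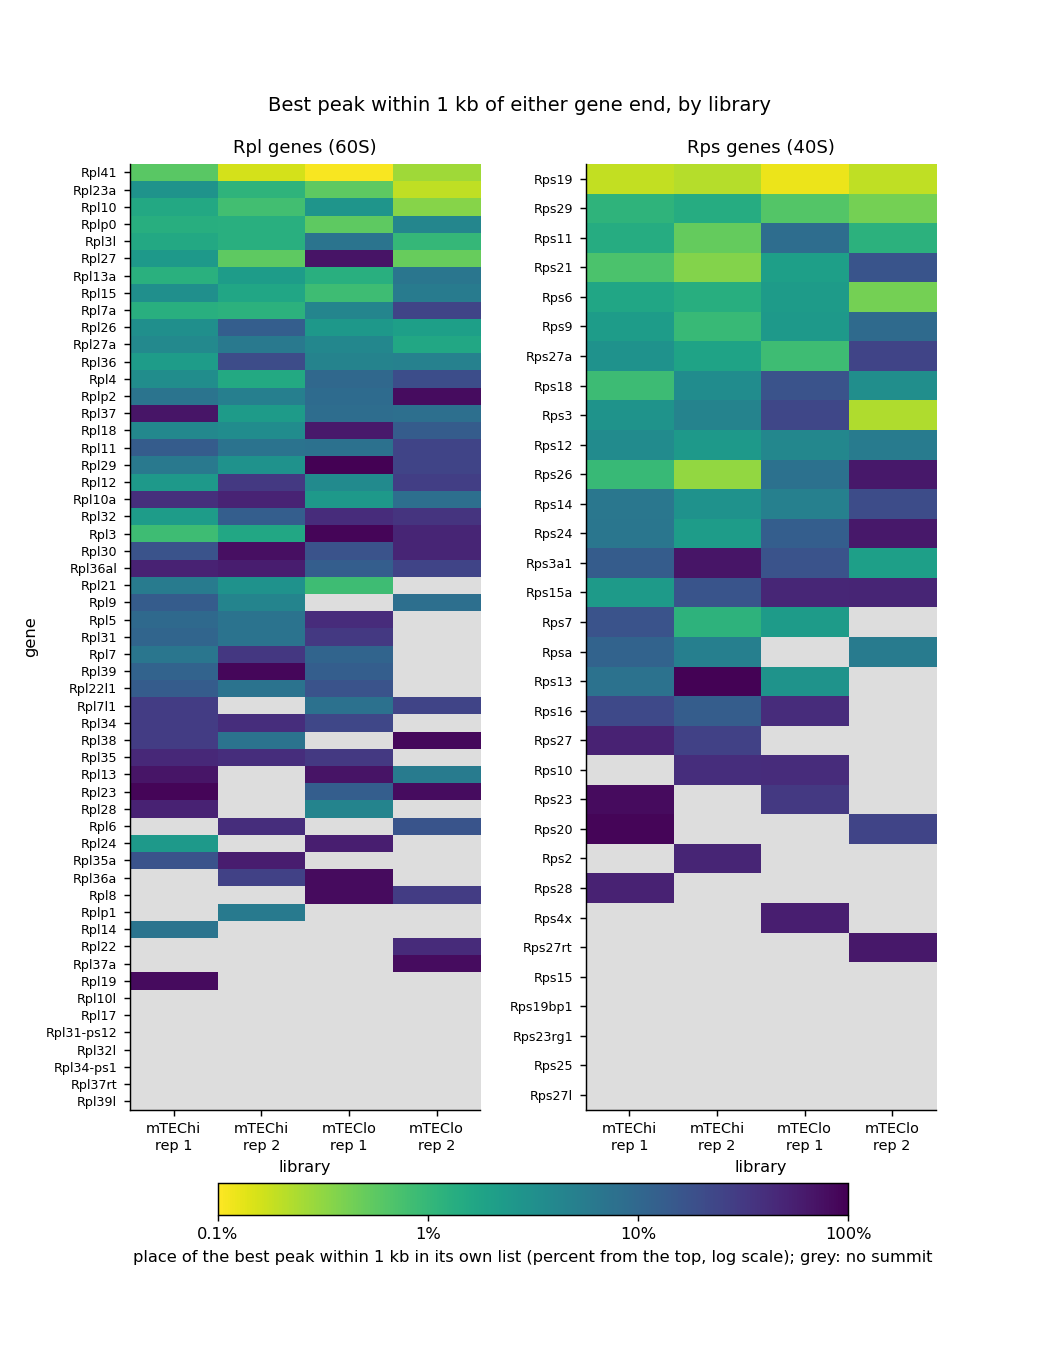
Place of the best peak within 1 kb of either end in its own list (colour, percent from the top on a log scale, lighter is higher), for 55 Rpl and 32 Rps genes (rows) in each library (columns, mTEChi left of mTEClo). Grey cells have no summit within 1 kb; Rps19 and Rpl41 are light in all 4 libraries, and 12 of these genes are grey in all 4.

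The genes known for the link to Mdm2 and p53 were marked unevenly. Rpl11 (chr4:136049354-136053393) was called in all 4 libraries, with scores of 6.13 and 6.01 in mTEChi and 8.0 and 4.93 in mTEClo and summits 55 and 26 bp before the start in mTEChi and 18 bp after and 101 bp before it in mTEClo. Rpl5 (chr5:107900508-107909005) was called in 3, with scores of 7.26 and 6.01 in mTEChi and 4.60 in mTEClo replicate 1, and its nearest summit in mTEClo replicate 2 was 3989 bp away. Neither gene was near the top: their best place in any list was 7.27%. Both genes therefore had calls in both states.

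Rpl26, which in human cells also binds the p53 message, was called in all 4 libraries, at 3.23% and 12.8% in mTEChi and 2.51% and 2.02% in mTEClo. Rps27a, made as a fusion with ubiquitin, was called in all 4 as well, at 2.96% and 1.84% in mTEChi and 0.848% and 24.3% in mTEClo. Rps7 was called in 3, at 16.9% and 1.15% in mTEChi and 2.24% in mTEClo replicate 1. Rpl23 was called in 3, with scores of 2.38 in mTEChi replicate 1 and 6.79 and 3.03 in mTEClo. Rpsa, also called the laminin receptor, lacked a call in mTEClo replicate 1 only, and Rps4x, an X-linked 40S gene, was called in that library only.

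The 2 cell states were compared over libraries. Ribosomal genes with a summit within 1 kb numbered 65.5 ± 3.54 in mTEChi and 57.5 ± 6.36 in mTEClo (SD, n = 2 each), a difference of 8.0 (two-sided exact permutation test, p = 0.333). Within 5 kb they numbered 74.5 ± 0.707 in mTEChi and 72.0 ± 2.83 in mTEClo, a difference of 2.50 (exact permutation test, p = 0.667). The median place was 5.40 ± 1.17% in mTEChi and 11.2 ± 3.87% in mTEClo, a difference of -5.82 percentage points (exact permutation test, p = 0.333), and the median distance to the nearer end 98.5 ± 2.12 bp in mTEChi and 106 ± 13.4 bp in mTEClo, a difference of -7.50 bp (exact permutation test, p = 1.00). No lower p than 0.333 is possible in a comparison of 2 against 2 libraries, so none could pass 0.05. For the count within 1 kb and for the place, both mTEChi libraries lay on 1 side of both mTEClo libraries, while the counts within 5 kb and the distances overlapped. Without mTEClo replicate 2 the differences were 3.5 genes within 1 kb, -3.09 percentage points of place and 2.00 bp of distance. Without mTEClo replicate 1 the difference within 1 kb was 12.5 genes. Over all called genes the median place was also separated by state, at 16.9% and 20.6% in mTEChi and 23.0% and 24.3% in mTEClo. The separation in place was thus not particular to ribosomal genes. Shares of all genes called within 1 kb overlapped, at 37.4% and 37.4% in mTEChi and 47.3% and 35.7% in mTEClo.

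Gene by gene, calls in both libraries of 1 state alone were few. Within 1 kb, 3 genes were called in both mTEChi libraries and no mTEClo library (3.30%), against 1.94% of all genes, and 1 in both mTEClo libraries and no mTEChi library (1.1%), against 4.08% of all genes. Within 5 kb these counts were 1 (1.1%), against 2.23% of all genes, and 2 (2.2%), against 3.53%. These shares rest on 1 to 3 genes. With any 1 library left out the mTEChi-only count within 1 kb was 5 to 14. That setting asks for fewer libraries, so the count could only stay or rise.

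Of the mTEChi-only genes within 1 kb, Rps27 had places of 51.8% and 26.2% in mTEChi and Rpl35a places of 16.9% and 57.8%. The median places of all called genes in these lists were 16.9% and 20.6%. Rps27, a zinc-binding 40S protein gene, scored 3.62 and 4.34 in mTEChi, 153 and 21 bp before its start, and Rab13 begins 67 bp away. It was also the mTEChi-only gene within 5 kb, with nearest mTEClo summits 7211 and 22886 bp away. Rpl35a scored 5.59 and 3.34 in mTEChi, against a minimum of 2.00 in every list. The mTEClo-only gene within 1 kb was Rpl8, a 60S core protein gene with mTEClo scores of 3.17 and 4.65, and within 5 kb Rps27rt and Rpl32l, neither of them canonical.

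Shifts of place among the 41 genes called in all 4 libraries were more frequent towards mTEChi. Both mTEChi places were above both mTEClo places at 15 genes (36.6%), against 25.1% of the 3700 genes called in all 4. They included Rpl7a, Rps21, Rpl32, Rps9, Rpl18, Rps15a, Rplp2, Rpl4, Rpl29, Rps12, Rps26, Rps24 and Rpl3. The best Rpl4 peaks lay past its far end in every library, where Snapc5 starts 735 bp downstream on the same strand. A count by either gene end assigns them to Rpl4 as well. Within 1 kb of its own start Rpl4 had a summit in mTEChi replicate 1 and mTEClo replicate 1 only. Both mTEClo places were above both mTEChi places at 5 (12.2%), against 14.2%: Rpl26, Rpl23a, Rps29, Rpl36al and Rpl10a. The direction towards mTEChi was thus also the more frequent one among all genes. In mTEClo replicate 2 the ribosomal genes had the lowest median place and the fewest calls of the 4 lists.

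Among these, chosen after their values were seen, Rps26 and Rpl3 showed wide gaps. Rps26, a 40S protein gene at the messenger RNA exit (chr10:128624529-128626506), scored 23.3 and 21.0 in mTEChi and 8.0 and 3.48 in mTEClo, at places of 0.939% and 0.305% in mTEChi and 7.67% and 64.6% in mTEClo. Rpl3, a 60S protein gene near the peptidyl transferase centre (chr15:80077781-80083406), scored 24.4 and 10.2 in mTEChi and 2.74 and 3.94 in mTEClo, at places of 0.862% and 1.58% in mTEChi and 91.9% and 48.8% in mTEClo. In the opposite direction Rpl10a, which scored 4.08 and 3.37 in mTEChi and 11.8 and 6.57 in mTEClo, had places of 38.9% and 49.7% in mTEChi and 2.41% and 8.0% in mTEClo. At these 3 genes the places of the states did not overlap, and the nearest summit of each library was within 338 bp of a gene end.

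**Figure D4:**
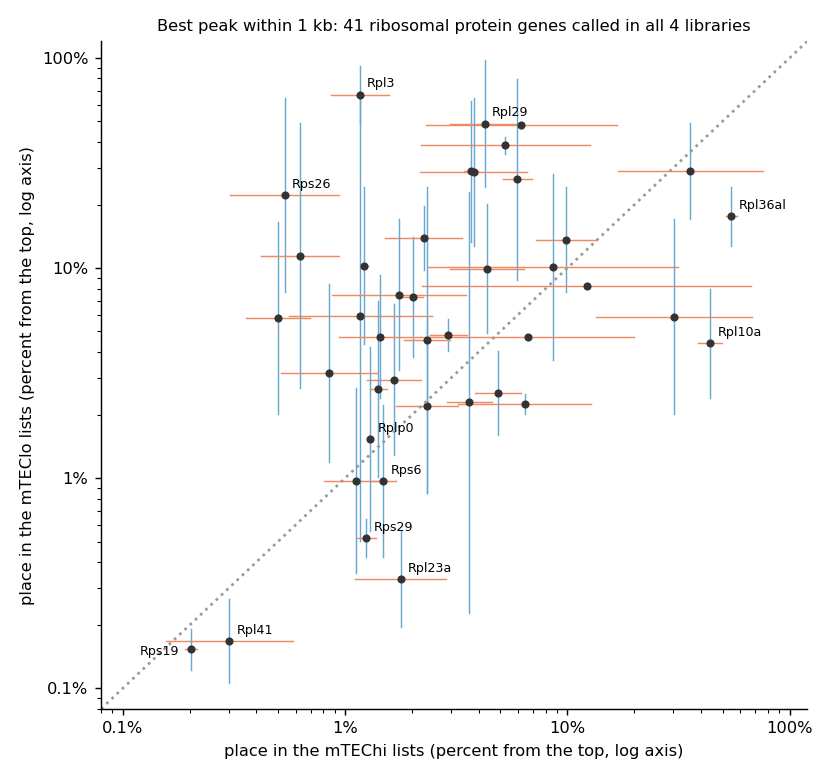
Place of the best peak within 1 kb in the mTEChi lists (horizontal axis) and the mTEClo lists (vertical axis), percent from the top, both axes logarithmic, for the 41 ribosomal protein genes called in all 4 libraries. Points are geometric means of the 2 libraries of a state, orange lines join the 2 mTEChi values and blue lines the 2 mTEClo values; Rpl3 and Rps26 lie far above the dotted line of equal place, Rpl10a and Rpl23a below it.

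Places of the 41 genes were alike within mTEChi, with a Spearman correlation across genes of 0.69 between its libraries. Between the mTEClo libraries it was 0.42, and between libraries of different states 0.25 to 0.44. For all 3700 genes the 6 pairs gave 0.50 to 0.70. Genes are not independent replicates, places hold many ties, and the correlations are descriptions.

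A few ribosomal genes were marked at a recurrent position inside the gene, with or without a summit at an end, a pattern looked for after their values were seen. Of the 71 ribosomal genes of 1 to 10 kb that are long enough, 4 (5.63%) had summits of all 4 libraries more than 1 kb inside both ends that spanned at most 150 bp from first to last, against 0.944% of 5298 genes of that length. They were Rpl22, Rpl18, Rps2 and Rpl17. Distances were taken from the outer ends of each gene. Whether the inner positions fall in an exon, in an intron or at another start of the gene was not assigned. Rpl22 (chr4:152324436-152334082), a 60S protein gene whose loss in mice blocks T cell development through p53, had summits 1266 and 1238 bp from its start in mTEChi and 1338 and 1313 bp from it in mTEClo. They scored 12.4 and 13.6 in mTEChi and 13.5 and 27.5 in mTEClo, and the place of 0.0577% in mTEClo replicate 2 was higher than the place of any best peak within 1 kb of a ribosomal gene in any list.

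At Rps2 (chr17:24718121-24721927), a 40S protein gene, the 4 inner summits lay within 14 bp of each other, 1893 and 1893 bp after the start in mTEChi and 1897 and 1907 bp after it in mTEClo. Their scores were 11.3 and 6.36 in mTEChi and 11.6 and 4.35 in mTEClo. Rpl17 (chr18:74998978-75003381) had summits 1601 and 1531 bp from its lower end in mTEChi and 1515 and 1485 bp from it in mTEClo, with scores of 6.68 and 5.43 in mTEChi and 8.63 and 7.15 in mTEClo. Counted by gene ends alone, Rpl17 belonged to the 13 genes without a call within 1 kb, while within 5 kb all 4 libraries called it. A further summit in each library lay beyond its upper end, scoring 11.0 and 7.31 in mTEChi and 5.66 and 9.65 in mTEClo. At Rpl18, called at an end in all 4 libraries too, the inner scores were 12.5 and 9.67 in mTEChi and 3.56 and 5.63 in mTEClo.

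Rps27l is the paralog of Rps27 and in human cells a known p53 target with a response element in its first intron. Within 5 kb of its ends it had only inner summits. They lay 1582 and 1504 bp after the start in mTEChi and 1378 and 1301 bp after it in mTEClo (chr9:66944624-66949522). Their scores of 4.56 and 3.34 in mTEChi and 8.63 and 3.03 in mTEClo differed between libraries, and in mTEClo replicate 1 the peak stood at 6.10%. The 4 positions spanned more than the 150 bp set for a recurrent inner position. Whether they lie in the first intron was not assigned, no motif was searched there, and a link to the human element was not tested.

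The genes without a summit within 5 kb in any library were Rps25, Rps19bp1, Rpl34-ps1 and Rpl31-ps12. Rps25 (chr9:44407714-44410406), a 40S protein used by viral internal ribosome entry sites, is the only canonical gene among them. Its nearest summits were 7669 and 17424 bp away in mTEChi and 7584 and 43851 bp away in mTEClo, although an end of Trappc4 lies 166 bp from it. Rps15, another 40S gene, had a summit within 5 kb in 1 library, at 1719 bp in mTEClo replicate 2. Of the testis-expressed paralogs, Rpl10l and Rpl39l had no summit within 1 kb. Rpl22l1, the paralog of Rpl22, was called in 3 libraries, with scores of 6.13 and 6.01 in mTEChi and 6.21 in mTEClo replicate 1.

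Few calls lay near the limits. Around 1 kb the last genes inside were Rps28 at 807 bp in mTEChi replicate 1 and Rpl3l at 536 bp and Rpl4 at 859 bp in mTEClo, and the first outside were Rpl22 at 1266 and 1238 bp in mTEChi and Rpl19 at 1089 bp and Rps27l at 1301 bp in mTEClo. Around 5 kb the last inside were Rps23 at 4672 bp in mTEChi replicate 2 and Rplp1 at 3972 bp in mTEClo replicate 1, and the first outside Rpl32l at 5483 bp and Rps28 at 5358 bp in mTEChi and Rpl37a at 5305 bp and Rpl39l at 5069 bp in mTEClo.

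The promoters of the 70 ribosomal genes found in the RefSeq table were searched for short motifs, which played no part in the choice of genes. The Ets core CCGGAAG, searched on both strands of the 300-base window, was in 25 (35.7%), against 12.1% of 17274 promoters, and the YY1 core AAGATGGC in 6 (8.57%), against 3.23%. The Sp core GGGCGG was in 40 (57.1%), against 46.9%, and the TATA box TATAAA in 9 (12.9%), against 13.4%. Pyrimidine runs of the TOP type, CTTTTCC or CTTTCC on the gene's strand within 25 bases of the start, were in 13 (18.6%), against 2.79%. No motif in this search contains another. A p53 decamer, the unit that p53 response elements hold as a pair, searched by its usual consensus on both strands, was in 4 (5.71%), against 7.32% of all promoters.

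The same letters were also counted by how regularly the genes were marked. Of the 29 genes with a promoter sequence that were called within 1 kb in all 4 libraries, 12 held the Ets core, 19 the Sp core, 1 the TATA box and 1 the p53 decamer. Among the 41 called in fewer libraries 13 held the Ets core, 21 the Sp core, 8 the TATA box and 3 the p53 decamer. Of the printed promoters, Rps25, with no peak, holds the Ets core in about the place where Rpl41 and Rps6 hold theirs. The median GC content was 58.0% in canonical ribosomal promoters, 54.7% in the others and 56.3% over all genes.

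As a check of the cells, genes that mark thymic epithelium, thymocytes, and B and myeloid cells were read in the same lists, although a peak list does not measure expression. Within 1 kb, 4 and 3 of 6 epithelial genes were called in mTEChi and 4 and 5 in mTEClo. Of 5 thymocyte genes 0 and 1 were called in mTEChi and 2 and 2 in mTEClo, and of 4 B and myeloid genes 0 and 0 in mTEChi and 1 and 0 in mTEClo. All genes reached 37.4% and 37.4% in mTEChi and 47.3% and 35.7% in mTEClo. Within 5 kb all 6 epithelial genes were called in every library. There 2 and 4 thymocyte genes were called in mTEChi and 3 and 4 in mTEClo, and 2 and 3 B and myeloid genes in mTEChi and 3 and 3 in mTEClo. The share of all genes was 59.8% and 64.1% in mTEChi and 69.2% and 59.7% in mTEClo. Lists held 73510 and 85308 peaks in mTEChi and 89809 and 69359 in mTEClo. Sequencing depth is unknown and a control antibody was not analysed here, so a missing call is not shown to be absence of signal.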

How the data were processed

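CUT&RUN peak lists of 2 mTEChi and 2 mTEClo libraries were analysed, grouped by sample titles. The tools were MACS2 2.2.7.1, Bowtie2 2.2.9, SAMtools 1.9 and Picard on mm10, per the submitters' processing notes, while their settings and any control used for peak calling are not given here. The deposited intervals are 301 bp wide with 150 bp on either side of the summit, 1 list per library. The score deposited by the authors was read as a −log10 p-value or −log10 q-value (which of them is not stated) and served only to rank peaks within a list (ties averaged). Read depth is unknown.

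Genes came from a RefSeq table of GRCm38.p6, the assembly of mm10, with strand only where the RefSeq promoter table has the gene (70 of the 91 ribosomal genes). A gene was called when a summit lay within 1 or 5 kb of either end; its best peak has the highest score there. Libraries were compared in a two-sided exact permutation test. Whether the replicates came from separate mice is not in the labels, so p-values reflect the spread between these libraries alone and may be technical. Same-numbered libraries were not paired: over 3700 genes their deviations correlated at -0.01.

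The genes, lists, motifs and tests were chosen with earlier results of these data known. Genes named are the 12 called in all 4 libraries with the best worst place, those without a summit within 5 kb, those called in 1 state alone, those next to each limit and a set of known roles, unless stated; some genes that this rule names are not reported here. Alternatives were the peaks at or above the median score, the 10000 highest, equal lists, other windows, the gene body, isolated or canonical genes, each library left out and the replicate block; the annotated start alone was added after seeing the data. Calling was tested on simulated data. Calculations ran in Python 3.11.15 with scipy 1.17.1, pandas 2.3.3 and numpy 2.4.6, and plots in matplotlib 3.10.9.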

Additional observations from a re-analysis of the deposited data

How the results depend on the processing

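Of 115 alternative values, 84 kept their direction and met the limits set for no change. For a difference only the direction could change, because with so few libraries no p could pass the threshold. The 49 differences between the states include those of the replicate block. These equal the differences without the block by construction, so they could not turn and count as kept. Of the 49 differences, 46 kept their direction. The 3 that turned were the distance differences: 2.50 bp with peaks at or above the median score, 2.00 bp with the 10000 highest peaks and 2.00 bp without mTEClo replicate 2; the cause was not tested. The distance difference was -73.8 bp with windows of 250 bp and 25 kb and -106 bp among isolated genes, against -7.50 bp. With 1 library left out, the difference in genes called was 3.5 to 12.5 within 1 kb and 0.500 to 4.50 within 5 kb, in distance -17.0 to 2.00 bp and in place -8.56 to -3.09 percentage points. Genes called in all 4 libraries numbered 15 within 1 kb and 19 within 5 kb with the 10000 highest peaks, a setting with fewer peaks, and 8 and 11 among the 25 isolated genes, a setting with fewer genes. The mTEChi-only count within 1 kb was 1 with peaks at or above the median score, 6 with the 10000 highest, 0 among isolated genes and 5 to 14 with 1 library left out. Within 5 kb it was 6 with the 10000 highest, 0 within 25 kb, 0 among isolated genes and 1 to 9 with 1 library left out. The mTEClo-only count within 1 kb was 0 with lists of equal length, 0 among isolated genes and 1 to 4 with 1 library left out. Within 5 kb it was 1 with peaks at or above the median score, 0 within 25 kb and 1 among isolated genes. It was 0 among canonical genes and 2 to 5 with 1 library left out. With a library left out, a setting that asks for fewer libraries, these counts of 1 state alone could only stay or rise. Among isolated or canonical genes, which are fewer, they could only stay or fall. What moved these small counts in the other settings was not tested. With the replicate block, an exact sign-flip test over 2 pairs whose smallest p is 0.500, p was 0.500 within 1 kb, 1.00 within 5 kb, 1.00 for distance and 0.500 for place. With the gene body counted there is no distance to give. From the annotated start alone, added after seeing the data, the differences were 5.00 and 2.50 genes within 1 and 5 kb. Unknown depth, tied scores, 2 libraries a state and an antibody the labels name in conflicting ways limit these lists.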
